A study of Mus musculus with 6 samples.

Results

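The genes of the proteasome were followed in cultured mouse thymic tuft cells after exposure to recombinant interleukin 13 (rIL-13). Members were all genes of the deposited count table whose symbol starts with Psma, Psmb, Psmc, Psmd, Psme, Psmf or Psmg followed by a digit, which gave 47 of 9088 listed genes. They cover 7 genes of the alpha ring, 10 genes of the beta ring, 17 genes of the regulatory particle, 6 assembly chaperones, 4 activators, the inhibitor Psmf1 and 2 genes to which no place in the complex was given. The last pair are Psmc3ip, which encodes a meiotic recombination factor and carries the prefix through its interaction with Psmc3, and Psme2b, a retrogene copy of Psme2. Further family members, Psma8, Psmb11 and Psmd9, fit the symbol rule but were not among the listed genes.

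Tuft cells of the thymus are medullary epithelial cells with a chemosensory, taste-like gene programme. In the rIL-13 group, tuft cells sorted from thymi of young wild-type (WT) male mice were aggregated, cultured for 12 h and then for 24 h in fresh medium, and given 20 ng/mL rIL-13 for 24 h. The vehicle group was handled the same way and received PBS alone for 24 h. Each group had 3 libraries of bulk MARS-seq, in which polyadenylated transcripts are tagged near their 3' end with unique molecular identifiers (UMIs) and counted by them. The labels do not say whether replicates were separate cultures, sorts or animals, so p-values reflect only how far these 6 libraries scatter, and that scatter may be technical. In bulk libraries, fewer cells of a type and less RNA per cell cannot be told apart.

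The proteasome is the main protease for ubiquitin-tagged proteins in the cytosol and nucleus. Its barrel, the 20S core, is built of outer alpha rings, which gate entry, and inner beta rings, which hold the catalytic sites, and the 19S regulatory particle binds ubiquitin chains, unfolds the substrate and feeds it into the barrel. Under interferon, the catalytic subunits encoded by Psmb5, Psmb6 and Psmb7 are replaced in newly built cores by those of Psmb8, Psmb9 and Psmb10, which gives the immunoproteasome and changes which peptides reach MHC class I. Many immune cells and parts of the thymic epithelium carry immunoproteasomes without such a stimulus.

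The listed genes held 295614, 287198 and 248028 UMIs in rIL-13 replicates 1, 2 and 3, against 394513, 457823 and 489919 UMIs in vehicle replicates 1, 2 and 3. All 10 tuft cell markers looked for were listed, with a summed share of 0.291 to 0.474% of UMIs in rIL-13 libraries and 0.260 to 0.301% in vehicle libraries. Of the thymic epithelial list 6 of 9 markers were present. Among markers of other cells, 6 of 7 fibroblast genes were present, at 0.101 to 0.237% of UMIs with rIL-13 and 0.140 to 0.230% with vehicle, together with 1 of 6 myeloid genes (Csf1r, 0.0012 to 0.0132% with rIL-13 and 0.0051 to 0.0168% with vehicle). None of 6 T lineage markers, 4 B lineage markers or the leukocyte gene Ptprc was among the listed genes. The fibroblast transcripts are thus part of each bulk sample, and their part in the member levels was not tested.

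No proteasome gene passed the test for a change with rIL-13. Of the 42 members with enough UMIs to be tested, 0 passed an adjusted p of 0.05 in either direction (edgeR quasi-likelihood test, Benjamini-Hochberg over 5135 genes), where 3 of all 5135 genes, or 0.0584%, passed. The smallest adjusted p of a tested member was 0.806, for Psmb2. At an unadjusted p under 0.05, Psmb2 and Psmd8 were lower with rIL-13 and 0 members were higher, against 2.41% of all genes tested that were lower and 3.08% that were higher, or 5.49% in either direction. The authors' deposited comparison held 0 members past its criteria, where 6 of all 9088 listed genes passed. DESeq2, run on the same counts, also gave 0 members, beside 4 genes higher and 2 lower. Its member log2 fold changes match the deposited ones in size but carry the other sign, so it does not count as separate evidence. Of the listed genes, 0.792% had a deposited fold change with the sign of rIL-13 minus vehicle. The deposited values are thus read as vehicle over rIL-13. With limma voom 0 members and 0 genes passed in either direction, so that result says nothing particular about the members.

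The immunoproteasome genes were expressed in both groups. Psmb8, which encodes the inducible counterpart of the Psmb5 subunit, had 16, 15 and 17 UMIs in rIL-13 libraries and 18, 30 and 31 UMIs in vehicle libraries. Scaled to library size with TMM factors (CPM), that is 58.8, 53.9 and 71.8 CPM with rIL-13, against 50.5, 69.6 and 67.3 CPM with vehicle. These ranges overlapped, and the log2 fold change was -0.04 ± 0.34 (SE, n = 3 each; adjusted p by edgeR = 0.996), with a 95% interval of -0.74 to 0.67. Psmb9, the inducible counterpart of Psmb6, had 10, 14 and 14 UMIs with rIL-13 and 14, 26 and 22 UMIs with vehicle. Its level was 36.7, 50.3 and 59.1 CPM in rIL-13 libraries, against 39.3, 60.3 and 47.8 CPM in vehicle libraries. The libraries of both groups were again mixed in order, and the log2 fold change was -0.03 ± 0.39 (adjusted p by edgeR = 0.996; 95% interval -0.84 to 0.79). Psmb10, the inducible counterpart of Psmb7, had 56, 61 and 60 UMIs with rIL-13 and 74, 102 and 88 UMIs with vehicle. At 206, 219 and 253 CPM in rIL-13 libraries and 208, 237 and 191 CPM in vehicle libraries, it had the most UMIs of the inducible genes in every library. The log2 fold change, 0.09 ± 0.23, did not pass (adjusted p by edgeR = 0.977; 95% interval -0.40 to 0.58). For all 3 inducible genes the interval lay inside 2-fold in either direction.

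The constitutive catalytic genes were likewise not shown to differ. Psmb5, the chymotrypsin-like subunit, had 441, 481 and 460 CPM in rIL-13 libraries, against 547, 531 and 497 CPM in vehicle libraries. All 3 rIL-13 libraries lay below all 3 vehicle libraries, and the log2 fold change of -0.19 ± 0.21 was about the size of its SE (n = 3 each, adjusted p by edgeR = 0.936). That SE holds counting error and dispersion shared across genes. The pooled within-group SD of log2 CPM was smaller, at 0.066 for Psmb5. With libraries scaled by total count alone its groups overlapped. Psmb6, the caspase-like subunit, had 573, 582 and 803 CPM with rIL-13 and 676, 661 and 597 CPM with vehicle. rIL-13 replicate 3 stood above the other 5 libraries, and the log2 fold change was 0.02 ± 0.22 (adjusted p by edgeR = 0.996). Psmb7, the trypsin-like subunit, had 143, 180 and 177 CPM with rIL-13 and 188, 246 and 130 CPM with vehicle. The vehicle libraries spanned the rIL-13 libraries, and the log2 fold change was -0.17 ± 0.27 (adjusted p by edgeR = 0.963).

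**Figure D1:**
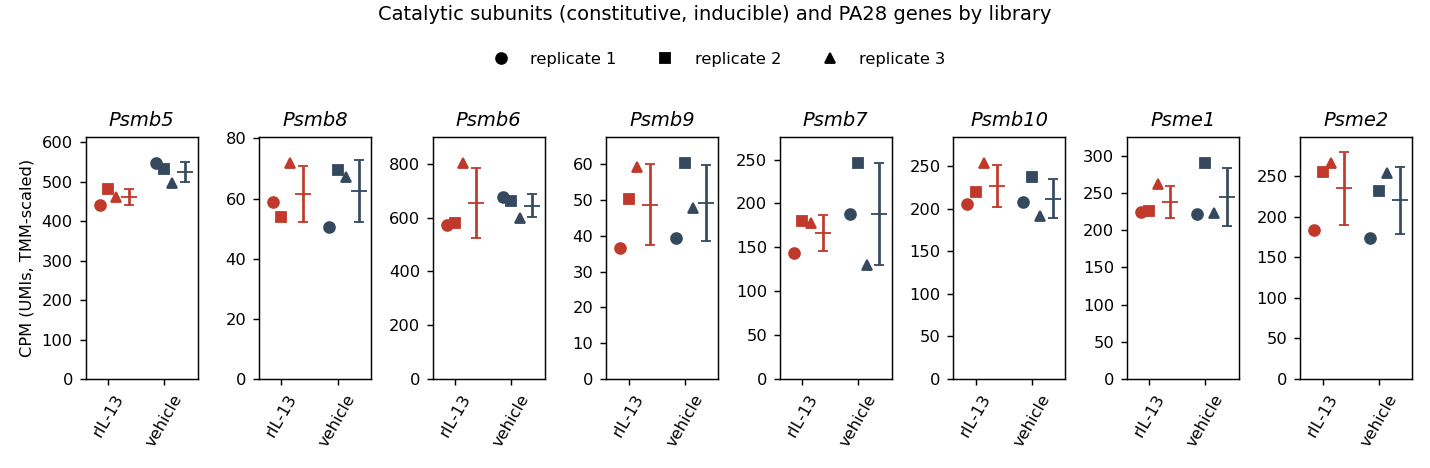
TMM-scaled CPM of each constitutive catalytic gene beside its inducible counterpart, and of Psme1 and Psme2, in the 3 rIL-13 libraries (red) and the 3 vehicle libraries (dark blue); marker shapes are replicates, the dash and bar are mean ± SD, and each panel has its own scale from 0. Among these 8 genes the groups stand apart for Psmb5, with 441 to 481 CPM under rIL-13 and 497 to 547 CPM under vehicle, and overlap for the other 7.

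The ratio of an inducible gene to its constitutive counterpart within 1 library does not depend on library scaling, although 3' UMI counts of different genes can differ in capture. These counts are not divided by transcript length, since each transcript is tagged once at its 3' end. Psmb8 over Psmb5 was 0.133, 0.112 and 0.156 in rIL-13 libraries, against 0.0923, 0.131 and 0.135 in vehicle libraries. On the log2 scale, with 0.5 UMIs added, the mean difference was 0.18 (rIL-13 minus vehicle; two-sided exact permutation p = 0.5, 0.75 adjusted over 3 ratios). It ran from 0.011 without vehicle replicate 1 to 0.30 without rIL-13 replicate 2. Psmb9 over Psmb6 was 0.0641, 0.0864 and 0.0737 with rIL-13, against 0.0581, 0.0912 and 0.080 with vehicle, with log2 means of -3.70 ± 0.21 and -3.70 ± 0.32 (SD, n = 3 each; exact permutation p = 1, adjusted p = 1). Psmb10 over Psmb7 was 1.44, 1.22 and 1.43 with rIL-13, against 1.10, 0.962 and 1.47 with vehicle, a mean log2 difference of 0.22 (exact permutation p = 0.4, 0.75 adjusted) that ran from 0.091 without vehicle replicate 2 to 0.39 without vehicle replicate 3. The smallest p that 3 against 3 libraries can give is 0.1, so none of these ratios could have passed 0.05. The pairs differed in order. Psmb10 had more UMIs than Psmb7 in 5 of 6 libraries, while Psmb8 and Psmb9 stayed below their counterparts in all 6.

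Together, Psmb8, Psmb9 and Psmb10 held 20.7, 20.6 and 21.1% of the UMIs of the 6 catalytic genes in rIL-13 libraries, against 17.4, 20.3 and 20.0% in vehicle libraries. The rIL-13 libraries lay above the vehicle libraries, at 20.8 ± 0.240% against 19.2 ± 1.59% (mean ± SD, n = 3 each). The counting intervals overlapped even with the lowest vehicle library, since the 95% Wilson interval of rIL-13 replicate 1 ran from 17.0 to 24.9% and that of vehicle replicate 1 from 14.6 to 20.6%. The difference was 1.55 percentage points, and 0.633 without vehicle replicate 1. Such intervals cover counting error only, and the difference in share was not tested. The log2 fold changes of Psmb8, Psmb9 and Psmb10 were -0.04, -0.03 and 0.09. Those of Psmb5, Psmb6 and Psmb7, the other part of the total, were -0.19, 0.02 and -0.17.

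**Figure D2:**
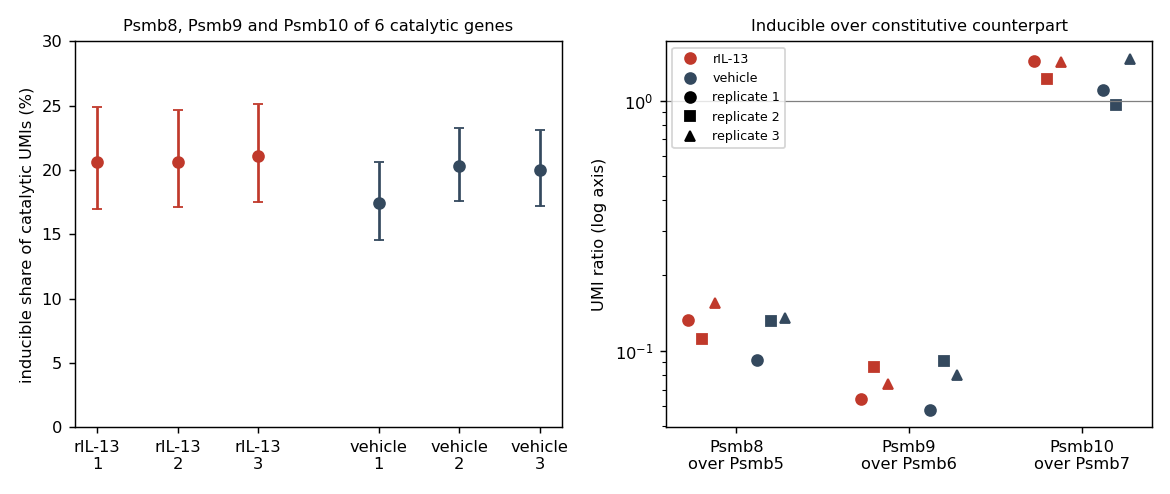
Left, percent of the UMIs of Psmb5 to Psmb10 that belong to Psmb8, Psmb9 and Psmb10 in each library, with 95% Wilson intervals; the points lie between 20.6 and 21.1% with rIL-13 and between 17.4 and 20.3% with vehicle, and the intervals overlap. Right, UMI ratio of each inducible gene to its constitutive counterpart on a log axis, red for rIL-13 and dark blue for vehicle, with marker shapes as replicates; Psmb10 lies near or above Psmb7, and Psmb8 and Psmb9 lie well below their counterparts.

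The constitutive genes Psmb5 and Psmb6 differ from the inducible genes that replace them in level and in the short motifs found in the windows used. The third pair was the other way in level, with more UMIs for Psmb10 than Psmb7 in all libraries but vehicle replicate 2. Psmb7 was not in the promoter table. Whether motif and level are linked was not tested. Start-site sequences of Psmb5, Psmb8, Psmb6 and Psmb9 are shown. They are RefSeq sequences of build GRCm38.p6, from 250 bases before to 50 bases after the RefSeq start, 5′ to 3′ on the strand of the gene: Psmb5 at chr14:54617946-54618245, minus strand; Psmb8 at chr17:34197945-34198244, plus strand; Psmb6 at chr11:70525107-70525406, plus strand; Psmb9 at chr17:34187281-34187580, minus strand. Capitals mark matches to TGACNNNGC, the core of the antioxidant response element read by NFE2L1 and NFE2L2, and to CCAAT, on either strand; an interferon-type element, 2 copies of GAAA set 2 bases apart, was also searched on both strands.
Psmb5: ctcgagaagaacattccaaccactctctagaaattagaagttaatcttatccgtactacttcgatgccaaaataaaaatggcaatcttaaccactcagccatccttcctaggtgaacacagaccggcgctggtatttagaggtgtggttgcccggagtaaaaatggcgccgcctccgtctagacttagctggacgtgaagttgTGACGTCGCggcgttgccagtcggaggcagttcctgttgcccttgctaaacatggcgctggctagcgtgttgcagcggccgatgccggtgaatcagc
Psmb8: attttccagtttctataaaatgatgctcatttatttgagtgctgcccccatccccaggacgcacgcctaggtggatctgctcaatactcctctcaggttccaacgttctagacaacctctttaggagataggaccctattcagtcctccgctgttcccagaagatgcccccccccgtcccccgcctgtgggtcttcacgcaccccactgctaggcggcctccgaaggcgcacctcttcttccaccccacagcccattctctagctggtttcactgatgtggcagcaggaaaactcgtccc
Psmb6: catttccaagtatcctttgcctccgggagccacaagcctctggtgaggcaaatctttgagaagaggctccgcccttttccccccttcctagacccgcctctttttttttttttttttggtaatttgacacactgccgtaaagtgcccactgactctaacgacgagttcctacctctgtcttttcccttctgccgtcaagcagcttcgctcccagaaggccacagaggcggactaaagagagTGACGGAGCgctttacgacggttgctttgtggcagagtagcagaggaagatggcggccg
Psmb9: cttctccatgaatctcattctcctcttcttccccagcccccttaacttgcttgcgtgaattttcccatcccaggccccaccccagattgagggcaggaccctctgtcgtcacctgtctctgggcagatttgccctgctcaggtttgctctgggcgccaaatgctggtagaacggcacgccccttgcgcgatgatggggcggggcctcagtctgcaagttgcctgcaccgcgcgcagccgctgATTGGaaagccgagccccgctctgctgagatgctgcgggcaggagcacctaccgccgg

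Psmb5 held TGACNNNGC at -47 to -39 and Psmb6 at -9 to -1, counted from the RefSeq start. Psmb9 held CCAAT, read on the other strand, at -8 to -4, and Psmb8 held none of the searched motifs in this window. The window of Psmb10, on chromosome 8, held none either. The windows of Psmb8 and Psmb9 lie wholly inside their gene models in GENCODE M21, downstream of the starts given there. Those of Psmb5 and Psmb6 reach upstream of theirs, so the windows of each pair are not alike. Of the 47 members, 40 were found in the promoter table. TGACNNNGC was present for 5 of these 40 (Psmb5, Psmb6, Psmc6, Psmd12 and Psme4), or 12.5%, against 14.0% of 27025 genes in the table. The interferon-type element was present for Psmb3, Psmd4, Psme1 and Psmg4, or 10% of members against 3.99% of all genes. CCAAT was present for 14 members, or 35%, against 41.1% of all genes. TGACNNNGC and CCAAT were thus found in the members at about the share seen in all genes, and 4 genes are few for a share of the interferon-type element. A match is a description of letters and no evidence of binding.

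In mm10 coordinates (GENCODE M21), the minus-strand gene Psmb9 spans 34181987 to 34187764 of chromosome 17 and the plus-strand gene Psmb8 spans 34197721 to 34201454, both in the MHC region. By the start sites of the RefSeq promoter table (GRCm38.p6), Psmb9 starts at 34187330, which lies 226 bases from the start of the peptide transporter gene Tap1 on the other strand. The GENCODE gene model of Psmb9 reaches past that Tap1 start. Tap1 had 4, 5 and 3 UMIs in rIL-13 libraries, against 6, 6 and 11 UMIs in vehicle libraries, under the count filter. Annotated exons of Psmb9 overlap those of Tap1, those of Psmb8 overlap Gm20496 and those of Psmb7 overlap Nek6, each on the other strand. In all, 11 members share exon bases with a gene on the other strand and 4 with one on the same strand. Whether the authors counted by strand is not given in the sources used here, nor is how reads from shared bases were assigned. The counts of these members are uncertain to that extent.

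The activators, which open the barrel without ubiquitin, were not shown to differ. Psme1 and Psme2 encode the subunits of the interferon-responsive PA28 cap. Psme1 had 224, 226 and 262 CPM in rIL-13 libraries, against 222, 290 and 224 CPM in vehicle libraries. Psme2 had 184, 255 and 266 CPM with rIL-13, against 174, 232 and 254 CPM with vehicle. Both genes overlapped almost fully between groups, with log2 fold changes of -0.05 ± 0.23 and 0.09 ± 0.25 (SE, n = 3 each; adjusted p by edgeR = 0.993 and 0.981). The log2 fold change was 0.18 ± 0.30 for Psme3, the nuclear PA28 subunit, and 0.53 ± 0.52 for Psme4, the PA200 activator and the tested member of lowest mean level (adjusted p by edgeR = 0.963 and 0.930). Psme4 rested on 5, 10 and 14 UMIs with rIL-13 and 8, 16 and 8 UMIs with vehicle, and its log2 fold change was 0.086 without rIL-13 replicate 3 and 0.89 without vehicle replicate 2.

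In the beta ring outside the catalytic genes, all 4 log2 fold changes were negative, with a median of -0.19, and none passed. Psmb2, whose product helps hold the ring together, had 228, 158 and 165 CPM in rIL-13 libraries, against 356, 267 and 234 CPM in vehicle libraries. The rIL-13 libraries lay below the vehicle libraries, though rIL-13 replicate 1 came close to vehicle replicate 3. Its log2 fold change of -0.63 ± 0.25 was 0.645-fold, with a 95% interval of 0.445- to 0.934-fold before adjustment (adjusted p by edgeR = 0.806). Leaving out 1 library at a time gave -0.84 to -0.45 for Psmb2, and the lowest adjusted p among these fits was 0.206 (edgeR, without rIL-13 replicate 1). Psmb4, the most abundant member, had 713, 1084 and 1039 CPM with rIL-13, against 1227, 898 and 938 CPM with vehicle. The groups overlapped for Psmb4, and the log2 fold change was -0.11 ± 0.22 (adjusted p by edgeR = 0.972). Psmb1 was next to Psmb6 in level, at 610 ± 59.5 CPM with rIL-13 and 658 ± 108 CPM with vehicle (SD, n = 3 each), and its log2 fold change was -0.11 ± 0.22. For Psmb3 it was -0.27 ± 0.23.

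The 19S particle showed 12 of 17 tested genes with a negative log2 fold change and a median of -0.17, while over all genes tested 50.0% were negative and the median was -0.00025. No gene of it passed. Psmd8, a lid subunit, had 459, 427 and 384 CPM in rIL-13 libraries, against 665, 555 and 530 CPM in vehicle libraries. Every rIL-13 library lay below every vehicle library, and the log2 fold change was -0.46 ± 0.21 (SE, n = 3 per group; adjusted p by edgeR = 0.860). Psmc1, an ATPase of the base, had 250, 230 and 228 CPM with rIL-13, against 365, 309 and 289 CPM with vehicle. This gene too was lower in every rIL-13 library, with a log2 fold change of -0.44 ± 0.23 (adjusted p by edgeR = 0.860). Psmd11, a lid scaffold subunit, rested on 14, 15 and 15 UMIs with rIL-13 and 28, 43 and 30 UMIs with vehicle, or 51.4, 53.9 and 63.4 CPM with rIL-13 against 78.6, 99.8 and 65.1 CPM with vehicle. Its groups were apart by a narrow margin, and the log2 fold change was -0.53 ± 0.33 (adjusted p by edgeR = 0.866). Psmc3, another ATPase of the base, had 411, 348 and 372 CPM with rIL-13, against 463, 432 and 458 CPM with vehicle, and a log2 fold change of -0.26 ± 0.21 (adjusted p by edgeR = 0.926). Positive log2 fold changes were found for the ATPase Psmc6 (0.27 ± 0.36) and for the lid subunits Psmd6 (0.20 ± 0.26), Psmd13 (0.15 ± 0.22) and Psmd3 (0.02 ± 0.25). All 4 overlapped between groups. The other 9 genes of the particle, Psmc2, Psmc4, Psmc5, Psmd1, Psmd2, Psmd4, Psmd7, Psmd12 and Psmd14, also overlapped, with log2 fold changes from -0.29 to 0.01.

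Counting separation in place of significance, 6 members had all rIL-13 libraries below all vehicle libraries, namely Psmb2, Psmb5, Psmc1, Psmc3, Psmd8 and Psmd11, and 0 had them above. That is 14.3% of the 42 tested members, against 11.7% of all genes tested in either direction, of which 5.94% were lower with rIL-13 and 5.76% higher. The same 6 members were separated with DESeq2-type size factors and with a total that left out ribosomal protein genes, and 5 of them, all but Psmb5, with total count alone. Across the 42 members 27 log2 fold changes were negative and 15 positive, with a median of -0.11. The members' summed share of UMIs was 0.904, 0.984 and 1.05% in rIL-13 libraries, against 1.11, 1.07 and 0.982% in vehicle libraries. These shares overlapped, at 0.979 ± 0.0733% and 1.05 ± 0.0648% (SD, n = 3 each). By subcomplex, the share of the base ATPases stood apart, at 0.144 to 0.162% with rIL-13 and 0.167 to 0.173% with vehicle. Shares of the other subcomplexes overlapped, and none was tested. For 32 of the 42 members the 95% interval of the fold change, taken before adjustment, lay within 2-fold in both directions. The 10 with a wider interval were Psma1, Psma4, Psmb2, Psmc6, Psmd5, Psmd11, Psme4, Psmg1, Psmg2 and Psmg3.

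**Figure D3:**
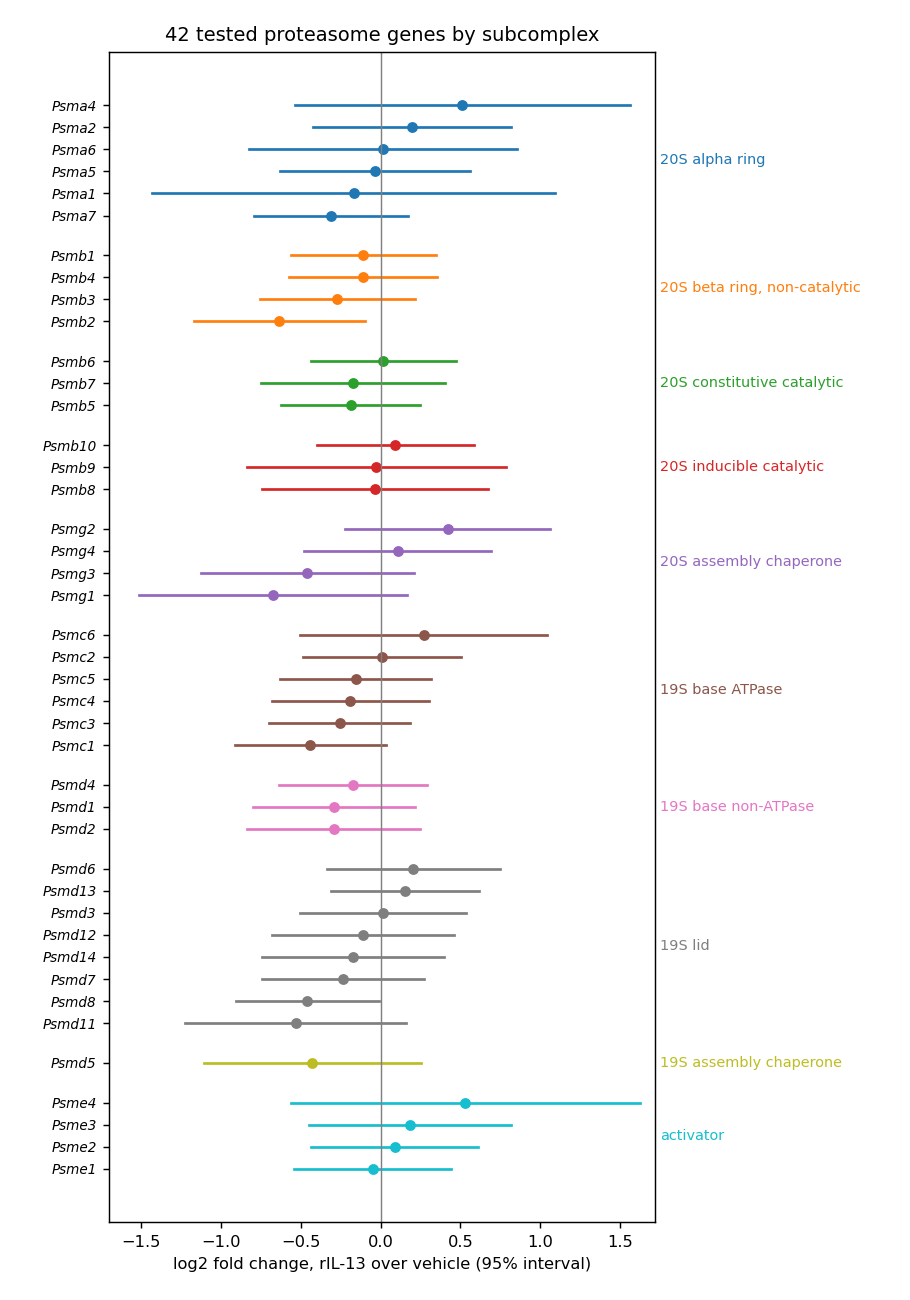
Log2 fold change, rIL-13 over vehicle, of the 42 tested members with its 95% interval before adjustment, grouped and coloured by subcomplex. Of the 42 points 27 lie left of 0 and 15 right of it, and the intervals of Psmb2 and Psmd8 stop short of 0.

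Averaged over its 6 tested genes, the alpha ring varied more between libraries of the same group than between groups. Psma4 had 44.1, 118 and 148 CPM in rIL-13 libraries, against 118, 65.0 and 36.9 CPM in vehicle libraries. Psma6 had 73.5, 165 and 207 CPM with rIL-13, against 216, 137 and 89.0 CPM with vehicle. Psma1 had 66.1, 118 and 122 CPM with rIL-13, against 222, 81.2 and 47.8 CPM with vehicle. In each of these genes rIL-13 replicate 1 and vehicle replicate 3 were the low libraries of their groups. The same held for 6 of 6 tested alpha ring genes in both groups, whereas over all genes tested rIL-13 replicate 1 was the lowest of its group in 36.3% and vehicle replicate 3 in 32.6%. This order of libraries was not confined to the alpha ring. The 3 constitutive catalytic genes also were lowest in these libraries, 3 of 3 in both groups. Of the 16 tested genes of the 20S core, 12 were lowest in rIL-13 replicate 1 and 13 in vehicle replicate 3, and of all 42 tested members 22 in each. Psma4, which had the largest positive log2 fold change of the ring, stood at 0.51 ± 0.48 (SE, n = 3 each; adjusted p by edgeR = 0.926). Psma7, the most abundant of the ring, had 371, 488 and 604 CPM with rIL-13, against 668, 617 and 530 CPM with vehicle, and a log2 fold change of -0.31 ± 0.23 (adjusted p by edgeR = 0.911). The log2 fold change of Psma2 was 0.20 ± 0.29, that of Psma5 -0.03 ± 0.28, that of Psma6 0.02 ± 0.39 and that of Psma1 -0.17 ± 0.55.

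On the log2 scale the mean deviation of the 6 alpha ring genes from their vehicle mean was -0.53, 0.21 and 0.47 in rIL-13 replicates 1, 2 and 3, and 0.51, 0.02 and -0.54 in vehicle replicates 1, 2 and 3. The rIL-13 mean of 0.05 was thus small beside an SD of 0.52 in either group. The mean deviation of the 17 genes of the 19S particle spanned a narrower range, at -0.08, -0.20 and -0.17 with rIL-13 and 0.07, -0.01 and -0.05 with vehicle. These rIL-13 means lay below the vehicle means by a narrow margin, and the difference was not tested. The pooled within-group SD of log2 CPM had a median of 0.567 over the alpha ring genes, 0.268 over all 42 members and 0.370 over all genes tested. Psma1, Psma4 and Psma6 exceeded 95.4, 95.2 and 90.5% of tested genes in this SD, and Psmc6 86.1%. The ring was uneven in this, since Psma2 exceeded 65.2% of tested genes, Psma5 31.9% and Psma7 28.2%. At the other end, Psmb5 exceeded 0.331% of tested genes and Psmc3 1.07%. A list of 42 genes may hold a few near either end of such a ranking, so this was not read as a trait of the family. Genes of like count were not compared. With 1 library left out at a time, the log2 fold change of Psma4 was lowest when vehicle replicate 3 (0.17) or rIL-13 replicate 3 (0.18) was dropped. It was highest when vehicle replicate 1 (1.004) or rIL-13 replicate 1 (0.87) was dropped. None of these passed (smallest adjusted p by edgeR = 0.436, without rIL-13 replicate 1). For Psma1 the range was -0.56 without vehicle replicate 3 to 0.66 without vehicle replicate 1, beside -0.17 with all 6 libraries.

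**Figure D4:**
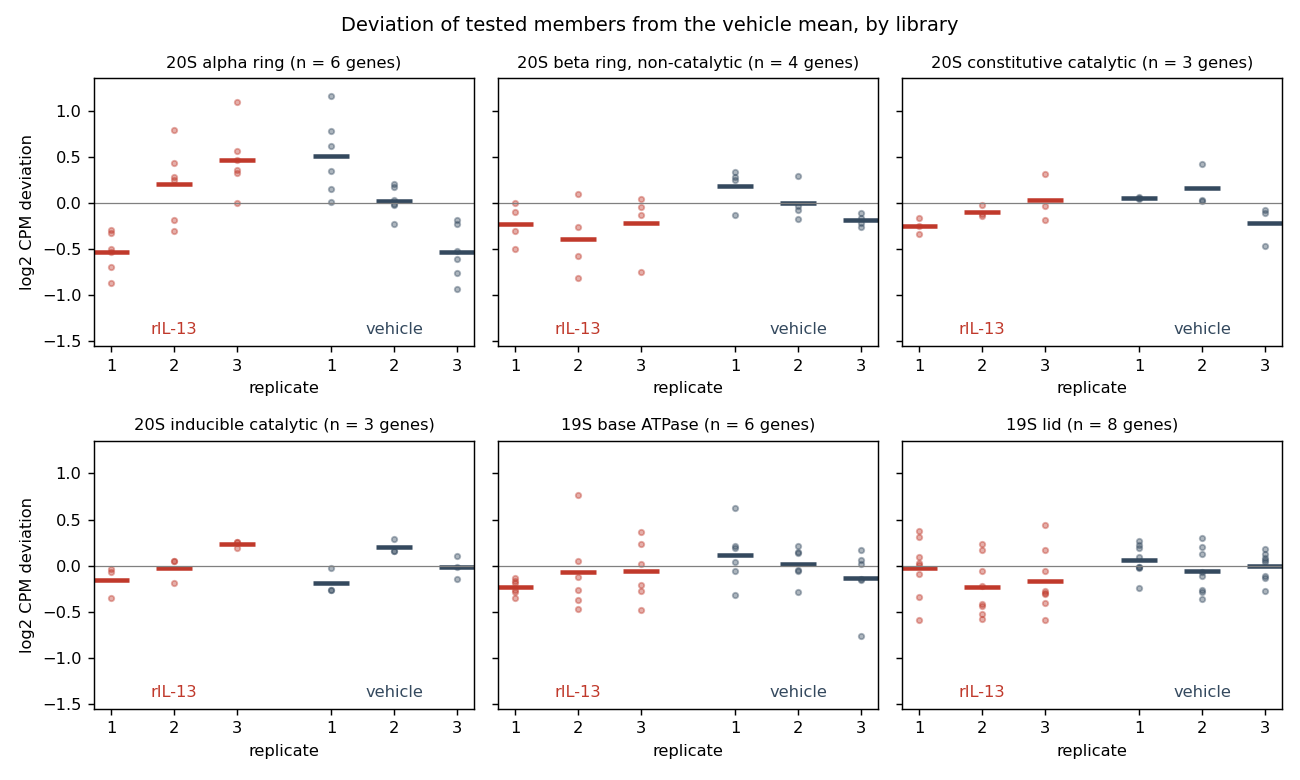
Deviation of log2 CPM from the vehicle mean for each tested member (points) and its mean over the subcomplex (bars), in rIL-13 replicates 1 to 3 (red) and vehicle replicates 1 to 3 (dark blue). Alpha ring means run from -0.53 to 0.47 with rIL-13 and from -0.54 to 0.51 with vehicle, a wider spread than in the other 5 panels.

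Other measures moved with these libraries. rIL-13 replicate 1 and vehicle replicate 3 were the deepest libraries of their groups. Within each group the summed fibroblast markers were highest in these libraries, at 0.237, 0.142 and 0.101% of UMIs in rIL-13 replicates 1, 2 and 3 and 0.203, 0.140 and 0.230% in vehicle replicates 1, 2 and 3. The summed tuft cell markers were lowest in them within each group, at 0.291, 0.474 and 0.462% with rIL-13 and 0.263, 0.301 and 0.260% with vehicle, although vehicle replicate 1 came close. In vehicle replicate 1, the library with the highest alpha ring mean, the fibroblast share was above that of vehicle replicate 2. The part of depth and of either cell type in the alpha ring levels was not tested. Rps27a, which encodes ubiquitin fused to a ribosomal protein, had 400, 740 and 1102 CPM with rIL-13, against 1022, 571 and 421 CPM with vehicle, so that its lowest libraries were also rIL-13 replicate 1 and vehicle replicate 3.

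No assembly chaperone passed the test. Psmg1 had 58.8, 43.1 and 42.2 CPM in rIL-13 libraries, against 121, 44.1 and 69.5 CPM in vehicle libraries. Vehicle replicate 2 lay at the level of the rIL-13 libraries, and the log2 fold change was -0.68 ± 0.40 (SE, n = 3 each; adjusted p by edgeR = 0.866). It was -0.24 without vehicle replicate 1 and -0.98 without vehicle replicate 2. Psmg1 and Psmg2 encode partners that scaffold the alpha ring, and the log2 fold change of Psmg2 had the other sign, at 0.42 ± 0.31 (adjusted p by edgeR = 0.911). Psmg3 and Psmg4, the second such pair, had -0.46 ± 0.32 and 0.11 ± 0.28. Psmd5, a chaperone of the 19S base, had 88.2, 46.7 and 67.6 CPM with rIL-13, against 75.8, 102 and 93.3 CPM with vehicle, and a log2 fold change of -0.43 ± 0.32 (adjusted p by edgeR = 0.912).

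Of the 47 members, 5 fell under the count filter and were read from the fit with no filter. Psma3, an alpha ring gene, had 3, 9 and 3 UMIs in rIL-13 libraries, against 7, 9 and 8 UMIs in vehicle libraries. Psmd10, a 19S chaperone also known as gankyrin, had 5, 6 and 7 UMIs with rIL-13, against 16, 12 and 3 UMIs with vehicle. Psmf1, the inhibitor PI31, had 2, 4 and 1 UMIs with rIL-13, against 4, 3 and 6 UMIs with vehicle. At these counts no difference was detectable. Psmc3ip had 7, 4 and 12 UMIs with rIL-13, against 11, 22 and 5 UMIs with vehicle. Psme2b had 4, 8 and 7 UMIs with rIL-13, against 48, 25 and 13 UMIs with vehicle. Vehicle replicate 1 held most of the vehicle UMIs of Psme2b, and on the CPM scale the groups overlapped, with 27.2 in rIL-13 replicate 3 and 26.6 in vehicle replicate 3. Psme2b had the smallest p of any member, with a log2 fold change of -1.57 ± 0.53 that did not pass adjustment over 9088 genes (adjusted p by edgeR = 0.670). In that fit 7 genes, or 0.077%, passed. Without vehicle replicate 3 the Psme2b value was -1.98 (adjusted p by edgeR = 0.0849), and without vehicle replicate 1 it was -0.83. The annotated Psme2b transcript of 837 bases is identical to that of Psme2 at 99.37% of aligned bases, so reads of the pair may be split between them. Exons of Psme2b also share bases with 9930111J21Rik1 on the same strand. For both reasons the Psme2b value is uncertain.

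Genes that build, regulate or work with the proteasome were read from lists. Of 30 assembly and regulatory genes, 21 were listed and 18 tested, 0 passed in either direction, and the median log2 fold change was 0.03. Of the 18, 1 had an unadjusted p under 0.05 in edgeR, where 5.49% of all genes tested did. The groups stood apart for 11.1% of the 18, against 11.7% of all genes tested, so both shares were near those over all genes. Zfand2a, the heat- and arsenite-inducible protein AIRAP that binds the proteasome, had 47.8, 53.9 and 50.7 CPM in rIL-13 libraries, against 11.2, 27.8 and 36.9 CPM in vehicle libraries. Every rIL-13 library was higher, but at 0.96 ± 0.45 the log2 fold change did not pass (adjusted p by edgeR = 0.860). Akirin2, which helps bring proteasomes into the nucleus, was lower in every rIL-13 library, with a log2 fold change of -0.25 ± 0.25 (adjusted p by edgeR = 0.932). Nfe2l1, the factor that drives proteasome genes when proteasomes are inhibited, and Pomp, the core maturation factor, had log2 fold changes of 0.14 ± 0.25 and 0.13 ± 0.23. Of 6 ubiquitin genes 5 were listed and tested, 0 passed, 0 had an unadjusted p under 0.05, and the median was 0.16.

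Of 22 genes of class I presentation and interferon signalling, 17 were listed and 11 tested, 0 passed in either direction, and the median log2 fold change was 0.04. An unadjusted p under 0.05 in edgeR was reached by 0 of the 11, against 5.49% of all genes tested. The groups stood apart for 9.09% of the 11, against 11.7% of all genes tested. B2m, the light chain of MHC class I, had 191, 452 and 625 CPM in rIL-13 libraries, against 427, 478 and 256 CPM in vehicle libraries. Its groups overlapped, with a log2 fold change of 0.13 ± 0.40 (adjusted p by edgeR = 0.988). H2-T23, a non-classical class I heavy chain, had 66.1, 96.9 and 80.3 CPM with rIL-13, against 126, 121 and 113 CPM with vehicle. It was lower in every rIL-13 library, with a log2 fold change of -0.56 ± 0.29 that did not pass (adjusted p by edgeR = 0.860). Class I heavy chain genes are alike in sequence, so reads of H2-T23 may be shared with its relatives. For Tap2, the partner of Tap1 in the peptide transporter, the log2 fold change was 0.68 ± 0.41 (adjusted p by edgeR = 0.866).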

How the data were processed

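The 6 libraries were grouped and numbered from their titles. Per the submitters' processing notes, bcl2fastq, cutadapt, STAR 2.5.2b, HTSeq and DESeq2 were used with mm10, with no roles given. Per the file headers, the authors deposited raw UMI counts per gene, a size-factor normalized signal, log2 values from DESeq2's regularized transformation, and a comparison of their own with log2 fold changes and p-values. The table holds only genes that reach 6 UMIs in 1 library or more, and totals are summed over these genes. The counts were used for every test. The authors' comparison was used only to count the genes it called and to compare the size and sign of its log2 fold changes. The deposited signal and log2 values entered no test.

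Genes were tested with edgeR 4.0.16 in R 4.3.3 (quasi-likelihood F test, robust, TMM factors, no covariate), with filterByExpr keeping 5135 genes with 93.8% of UMIs. The threshold was a two-sided p of 0.05 after Benjamini-Hochberg adjustment. Standard errors were back-calculated from F and also hold counting error and dispersion shared across genes. The biological coefficient of variation was 24.9%. Members below the filter were read from a fit that asked only for 1 UMI. The code was tested on simulated counts. Alternatives were DESeq2 1.42.0, limma 3.58.1 voom, other scaling, filters and thresholds, a replicate block, and each library left out. The non-overlap counts under other scaling were added after seeing the data. Members, lists and tests were chosen with earlier results of these data known.

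Named genes were the catalytic, activator, inhibitor and chaperone genes, the 6 other tested members with the smallest p in each direction, the 3 highest and 3 lowest in mean CPM, and members under the filter. The other members and the pathway genes named were chosen after their values were seen. Positions come from GENCODE M21, in which 8966 of 9088 symbols and all 47 members were found, and promoters from the RefSeq table (GRCm38.p6). Figures were drawn with matplotlib 3.10.9.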

Additional observations from a re-analysis of the deposited data

How the results depend on the processing

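No proteasome member passed under any of the 15 alternative settings, and the smallest adjusted p of a member over them was 0.0849, for Psme2b in edgeR without vehicle replicate 3. The median log2 fold change of tested members stayed between -0.19 and -0.07. Of 700 member values over these settings, 643 kept their direction and 57, from 22 members, turned to the other sign. None passed the threshold. The values counted under an adjusted p of 0.1 repeat the main fit and could not turn. The same holds, with no count filter, for the members under the filter. Over all genes, edgeR gave 2 genes higher and 1 lower, DESeq2 gave 4 higher and 2 lower, limma voom gave 0 in either direction, and no count filter gave 5 higher and 2 lower. An adjusted p under 0.1 gave 3 higher and 2 lower. Leaving out 1 library at a time gave 1 to 20 genes higher and 0 to 15 lower, with the highest counts without rIL-13 replicate 1 (20 higher and 9 lower) and without vehicle replicate 3 (8 higher and 15 lower). Same-numbered libraries did not deviate together (correlations of -0.0676, 0.0733 and -0.223), so the numbers were not taken as pairs. With a replicate block, 8 genes were higher and 5 lower, 0 of them members, and the log2 fold change was 0.031 for Psma1 and 0.0074 for Psmc3ip, against a negative value without the block. With limma voom, Psma1 stood at 0.10, Psmc3ip at 0.057, Psmd10 at 0.25 and Psma6 at -0.0029. With total count only, Psma3 stood at 0.0066, Psma5 at 0.0012 and Psmb9 at 0.0063. With no count filter, Psma6 stood at -0.00021 and Psmc2 at -0.0047. Leave-one-out log2 fold changes that crossed 0 ran as follows: Psma1 -0.56 to 0.66, Psma2 -0.036 to 0.40, Psma3 -0.69 to 0.22, Psma5 -0.26 to 0.075, Psma6 -0.29 to 0.38, Psmb1 -0.21 to 0.021, Psmb4 -0.23 to 0.039, Psmb6 -0.16 to 0.087, Psmb7 -0.39 to 0.055, Psmb8 -0.17 to 0.049, Psmb9 -0.18 to 0.13, Psmc2 -0.12 to 0.12, Psmc3ip -0.61 to 0.53, Psmc6 -0.054 to 0.62, Psmd10 -0.65 to 0.42, Psmd12 -0.26 to 0.089, Psmd3 -0.22 to 0.16, Psme1 -0.12 to 0.074, Psme2 -0.058 to 0.22, Psme3 -0.0067 to 0.41, Psmf1 -0.79 to 0.060 and Psmg4 -0.056 to 0.34. The Psmb9 over Psmb6 difference ran from -0.18 to 0.14, with -0.11 without rIL-13 replicate 2. Without crossing 0, Psma7 (-0.49 to -0.17), Psmd5 (-0.70 to -0.22) and Psmg3 (-0.68 to -0.25) were among the values that moved by over 1.5 times, as were Psma4, Psme4, Psmg1, Psme2b and the other gene ratios given above. The cause of these turns was not tested. Depth limits what could be seen for members with few UMIs, such as Psmb8, Psmb9 and Psme4.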
